A study of Mus musculus with 2 samples.

Results

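The genes examined here encode the machinery that takes mRNAs apart: the deadenylases of the CCR4-NOT and PAN2-PAN3 complexes and PARN, the poly(A)-binding proteins, the decapping enzyme and its enhancers, the LSM proteins, the 5'-3' exonucleases, the RNA exosome and factors of nonsense-mediated decay. They were chosen by symbol, as every gene whose symbol starts with Cnot, Exosc or Lsm followed by a digit, plus 21 listed genes such as Dcp2, Xrn1, Parn and Upf1. Of 55 genes so defined, 50 were measured, among 22180 named genes on the arrays. Cnot1, Cnot3, Exosc4 and Exosc6 had only probe sets that the platform's table assigns to several symbols and Upf3b had no named probe set, so these 5 were not analysed here.

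The study hybridised total RNA of the established mouse macrophage line RAW264.7 to 2 Affymetrix arrays, 1 for a wildtype culture and 1 for a culture whose label is HuR-deficient. HuR, the product of Elavl1, binds AU- and U-rich elements in mRNAs. Both cultures were transfected with poly(I:C) of high molecular weight, an artificial double-stranded RNA, using lipofectamine 2000 for 8 hours at a stated 1 mg/ml. No unstimulated culture was analysed here, the sample title calls the deficient cells HuR-KO but the labels do not state the method of the knockout or whether the line is 1 clone, and with 1 array per group there was no replicate error and no test between the conditions.

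In the cytoplasm, most mRNAs are first shortened at the poly(A) tail, after which the cap is removed and the body is degraded from the 5' end by XRN1, or the body is degraded from the 3' end by the exosome. Nonsense-mediated decay feeds transcripts with early stop codons into the same enzymes. In macrophages this machinery is known for clearing cytokine mRNAs, where decay-promoting proteins such as tristetraprolin recruit the CCR4-NOT complex to AU-rich elements and HuR can occupy similar elements and stabilise the transcript.

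As a whole, the genes of the decay machinery had similar signals on both arrays, and 2 of them, both deadenylation genes, were past 1.5-fold. Cnot9 was 1.81-fold and Parn 1.71-fold lower on the array labelled HuR-deficient. No gene was past 1.5-fold in the other direction and none was past 2-fold either way, by the probe set of highest mean signal. A second probe set of Dcp1b, which did not stand for the gene, was past 1.5-fold higher on the array labelled HuR-deficient. All values are log2 RMA signals, and a difference is the array labelled HuR-deficient minus the wildtype array. The filter on signal asked that at least 1 value of a gene be 4.38 or more, which is the median over all named genes and both arrays, and 48 of the 50 passed, the exceptions being Dcp1a and Upf1.

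These counts lay close to or below those of all genes. Among the 11905 named genes that passed the filter, 10.8% differed by 1.5-fold or more, 5.44% higher and 5.32% lower on the array labelled HuR-deficient, and 1.99% by 2-fold or more. Among the decay genes that passed, 4.17% differed by 1.5-fold or more, so their share was below the background and the count of 2 is no result about the set. Of the 48, 34 lay in the highest tertile of mean signal, where 8.80% of all genes were past 1.5-fold. The median difference over all 50 was 0.03, against 0.00 over all named genes and 0.00 over those that passed. There were 26 genes above 0, 22 below and 2 with equal values, against 49.2% above 0 among all named genes. The median size of the difference was 0.20, against 0.22 over all named genes, and 58.0% of the decay genes lay within 1.2-fold, against 56.4% of all named genes.

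**Figure D1:**
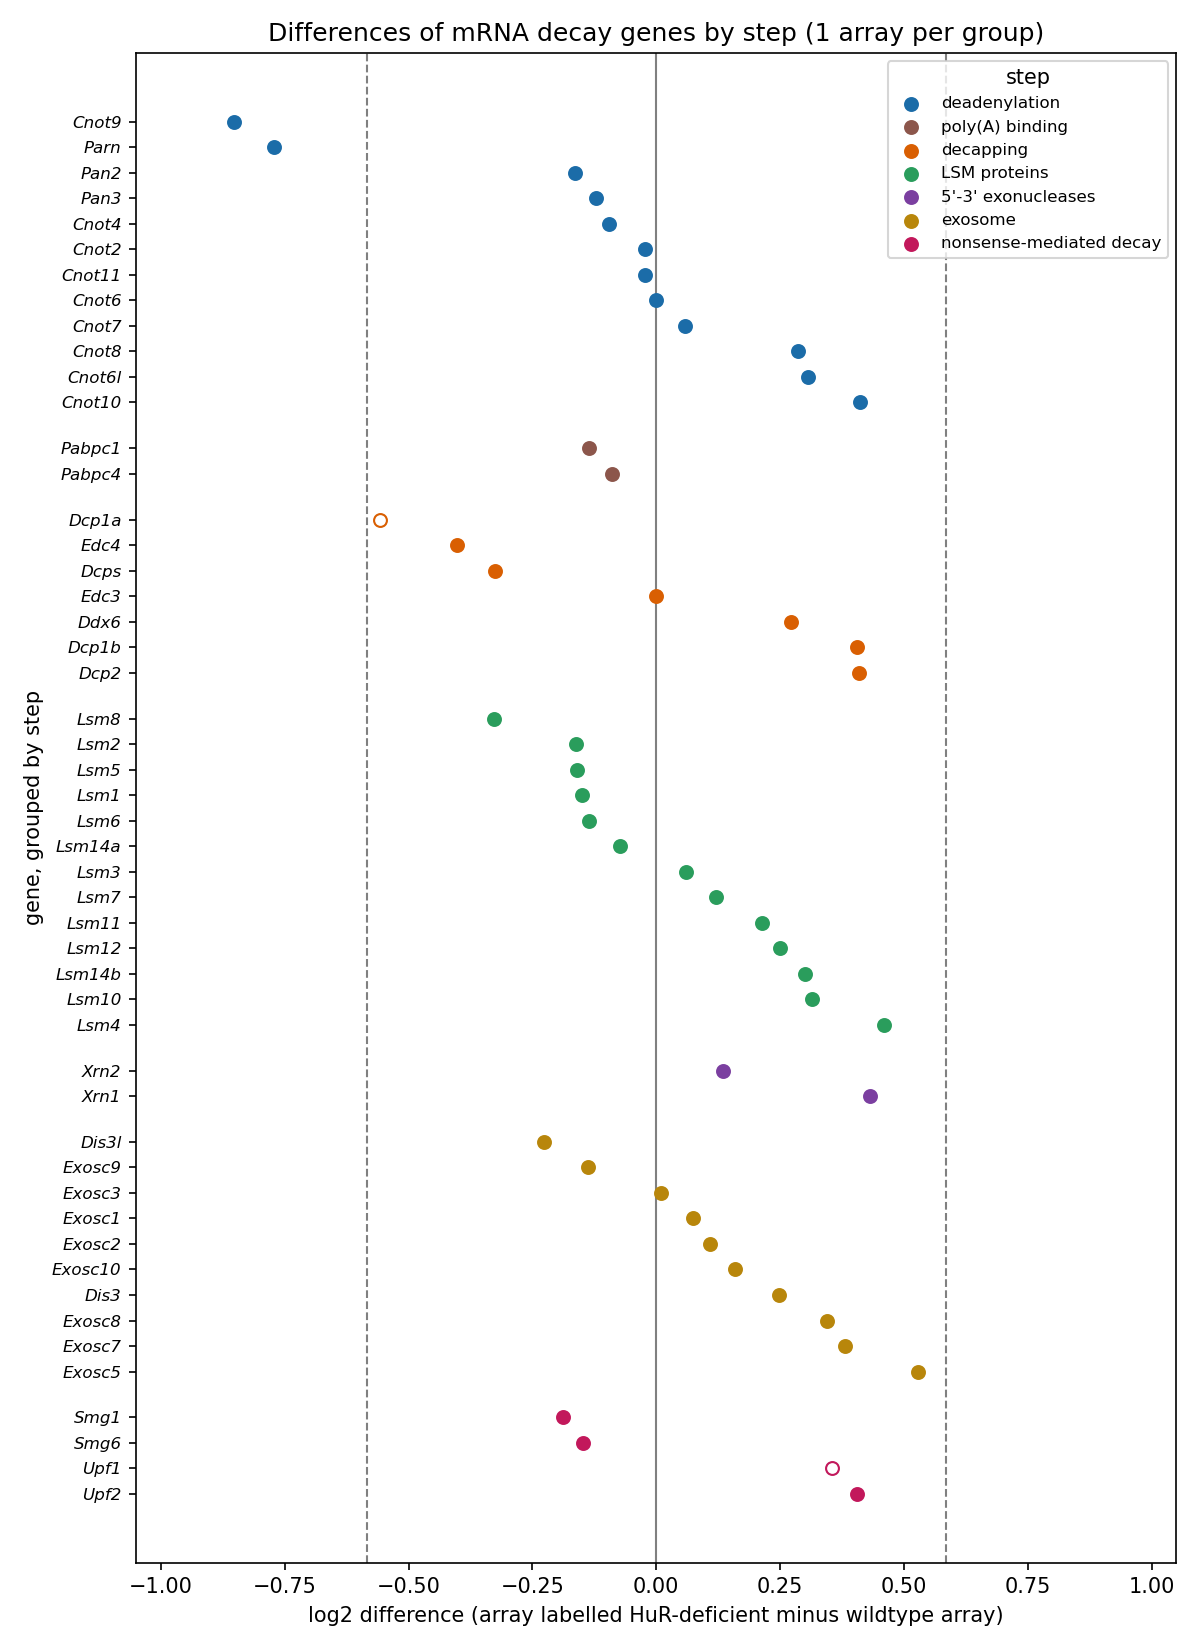
Each point is the log2 difference of 1 gene (x axis, array labelled HuR-deficient minus wildtype array), with genes on the y axis grouped and coloured by step and 1 array per group. Dashed lines mark 1.5-fold, and open points mark Dcp1a and Upf1, which did not pass the filter on signal; Cnot9 and Parn lie beyond the lower line and no gene lies beyond the upper one.

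Some facts of the series bear on these values. The targeted gene, Elavl1, read 7.68 in wildtype and 7.75 on the other array, so its signal does not separate the genotypes, although the second sample is titled HuR-KO, and the sources used here do not say whether its probe set lies in a deleted part. Of 11 macrophage markers 10 passed the filter, and their summed signal was 13.85 in log2 on the wildtype array and 13.87 on the other. Their differences ran from -0.33 to 1.57, the highest being Adgre1 and the next Aif1 (1.37). Of markers of other cells, those that passed were 2 of 4 for T cells, 0 of 2 measured for B cells, 2 of 3 for fibroblasts and 1 of 3 for epithelium, with summed log2 signals of at most 6.21; the part of other cells in any difference below was not tested. In bulk RNA, fewer cells that express a gene and less of its mRNA per cell cannot be told apart. Signals of different probe sets depend on the probes, so levels are compared between arrays and never between genes.

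The sequences upstream of 5 genes are shown for orientation, because these are the stretches from which the measured transcripts start. They are those of Cnot9 and Parn, the genes past 1.5-fold, of the related decapping genes Dcp1a and Dcp1b, which differed in opposite directions, and of Exosc5, the highest gene of the set. Each is a RefSeq promoter window of build GRCm38.p6, read 5' to 3' on the gene's strand and ending 30 bases past the annotated start. Capitals mark a match, on either strand, to the core bound by ETS factors, CCGGAAG; the GC box, GGGGCGGGG; the core of the interferon response element, GAAANNGAA; or the TATA box, TATAAA. None of these motifs contains another.
Cnot9 chr1:74505810-74506089 (+ strand): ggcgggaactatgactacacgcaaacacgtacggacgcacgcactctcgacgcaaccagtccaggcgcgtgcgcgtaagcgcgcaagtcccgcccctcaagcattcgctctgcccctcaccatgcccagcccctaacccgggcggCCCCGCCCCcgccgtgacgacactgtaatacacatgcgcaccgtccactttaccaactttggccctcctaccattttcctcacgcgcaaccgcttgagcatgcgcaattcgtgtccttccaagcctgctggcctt
Parn chr16:13668141-13668420 (- strand): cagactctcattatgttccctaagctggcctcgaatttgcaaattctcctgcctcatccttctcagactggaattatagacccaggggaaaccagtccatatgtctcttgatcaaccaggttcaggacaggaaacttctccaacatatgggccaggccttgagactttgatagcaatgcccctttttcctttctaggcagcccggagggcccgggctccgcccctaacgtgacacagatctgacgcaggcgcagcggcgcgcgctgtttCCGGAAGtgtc
Dcp1a chr14:30479315-30479594 (+ strand): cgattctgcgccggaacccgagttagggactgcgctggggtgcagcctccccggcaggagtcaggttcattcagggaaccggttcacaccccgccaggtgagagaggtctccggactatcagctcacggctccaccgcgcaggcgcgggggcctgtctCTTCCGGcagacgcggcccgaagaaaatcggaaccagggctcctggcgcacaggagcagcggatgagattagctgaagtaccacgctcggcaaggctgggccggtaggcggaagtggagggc
Dcp1b chr6:119175003-119175282 (+ strand): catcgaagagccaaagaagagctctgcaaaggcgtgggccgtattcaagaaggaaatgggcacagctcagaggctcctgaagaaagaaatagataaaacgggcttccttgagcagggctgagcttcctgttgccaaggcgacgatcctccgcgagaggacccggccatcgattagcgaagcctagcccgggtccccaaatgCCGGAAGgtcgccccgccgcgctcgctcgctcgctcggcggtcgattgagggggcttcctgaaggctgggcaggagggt
Exosc5 chr7:25658903-25659182 (+ strand): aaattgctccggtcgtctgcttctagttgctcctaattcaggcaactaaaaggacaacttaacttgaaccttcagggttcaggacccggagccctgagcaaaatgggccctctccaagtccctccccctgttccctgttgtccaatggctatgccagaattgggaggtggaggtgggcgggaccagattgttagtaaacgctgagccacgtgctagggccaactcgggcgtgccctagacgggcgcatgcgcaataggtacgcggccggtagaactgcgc

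The windows of Parn, Dcp1a and Dcp1b each held the ETS core, that of Cnot9 held the GC box, and that of Exosc5 held none of the 4 motifs. None of the 5 held the TATA box or the interferon response core in these letters. The motifs were counted in the full RefSeq windows, which reach 50 bases past the start. Over the 52 such windows for 42 of the measured decay genes, 23.1% held the ETS core and 23.1% the GC box, against 8.86% and 11.4% of all 32851 windows of the same length. A TATA box was in 1.92% of the decay genes' windows (Pabpc4), against 13.6% of all, and the interferon response core in 5.77% (Edc3, Pabpc4 and Upf2), against 8.56%. The windows of all genes were taken without regard to signal, while most decay genes passed the filter. Shares over genes of similar signal or GC content were not computed, so these contrasts may not be particular to decay genes. Of the genes shown, those with the ETS core were Parn (-0.77), Dcp1a (-0.56) and Dcp1b (0.40). A relation between motifs and differences was not tested. A match in these letters is a description of the window and not a site of binding.

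Deadenylation held both genes past 1.5-fold. CNOT9 is the armadillo-repeat subunit of CCR4-NOT through which GW182 proteins, the effectors of microRNAs, dock on the complex. Cnot9 (Entrez Gene 58184) read 6.47 in wildtype and 5.62 on the array labelled HuR-deficient, which is a difference of -0.85. At least as large a difference was found in 3.49% of all genes that passed the filter and in 2.97% of those in the same tertile of mean signal.

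PARN is a poly(A)-specific ribonuclease outside that complex, which also trims the ends of small structured RNAs. Parn (Entrez Gene 74108) read 5.59 in wildtype and 4.82 on the other array, a difference of -0.77. Differences of at least that size were found in 4.80% of all genes that passed the filter and in 4.41% of those in its signal tertile. The central 95% of all genes that passed the filter ran from -0.77 to 0.75, so Cnot9 lay below this range and Parn at its lower end. Each rests on 1 probe set and 1 array per group.

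The catalytic subunits of CCR4-NOT were equal or slightly higher on the array labelled HuR-deficient. CNOT6 and CNOT6L are the alternative EEP-type nucleases and CNOT7 and CNOT8 the alternative DEDD-type ones. Cnot6 read 7.40 on both arrays, identical in the deposited decimals, as were 2.11% of the genes that passed the filter. Cnot6l read 6.61 in wildtype and 6.91 on the array labelled HuR-deficient, differing by 0.31. Cnot7 read 6.67 and 6.73, a difference of 0.06, in the same order. Cnot8 read 7.42 and 7.71, a difference of 0.29. None of these 4 was lower, in contrast to Cnot9, though a difference between them and Cnot9 could not be tested with these arrays.

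The other measured subunits of the complex were close to 0, apart from Cnot10. CNOT10 and CNOT11 form a module on the N-terminal part of the scaffold. Cnot10 read 7.07 in wildtype and 7.48 on the other array, a difference of 0.41, the highest of the step, while its partner Cnot11 read 7.49 and 7.47, a difference of -0.02. Cnot2, which encodes a subunit of the NOT module, differed by -0.02, and Cnot4, which encodes an associated ubiquitin ligase, by -0.09. Over the 9 measured Cnot genes the median was 0.00, with 4 above 0, 4 below and 1 equal.

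The PAN2-PAN3 deadenylase, which acts on long poly(A) tails, gave weak signals near the filter. Pan2, which encodes the nuclease, read 4.74 in wildtype and 4.57 on the array labelled HuR-deficient, differing by -0.16. Pan3, which encodes its adaptor, read 4.50 and 4.38, a difference of -0.12, the second value lying just under the filter before rounding, so that Pan3 passed through its wildtype value. Over all 12 deadenylation genes the median was -0.02, with 4 above 0 and 7 below.

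The genes of the cytoplasmic poly(A)-binding proteins, which coat the tail and are displaced as it shortens, were slightly lower. Pabpc1 read 8.54 in wildtype and 8.41 on the other array, a difference of -0.14. Pabpc4 read 7.25 and 7.16, a difference of -0.09. Most genes that passed the filter differed by more, 68.1% by at least as much as Pabpc1 and 78.4% by at least as much as Pabpc4.

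**Figure D2:**
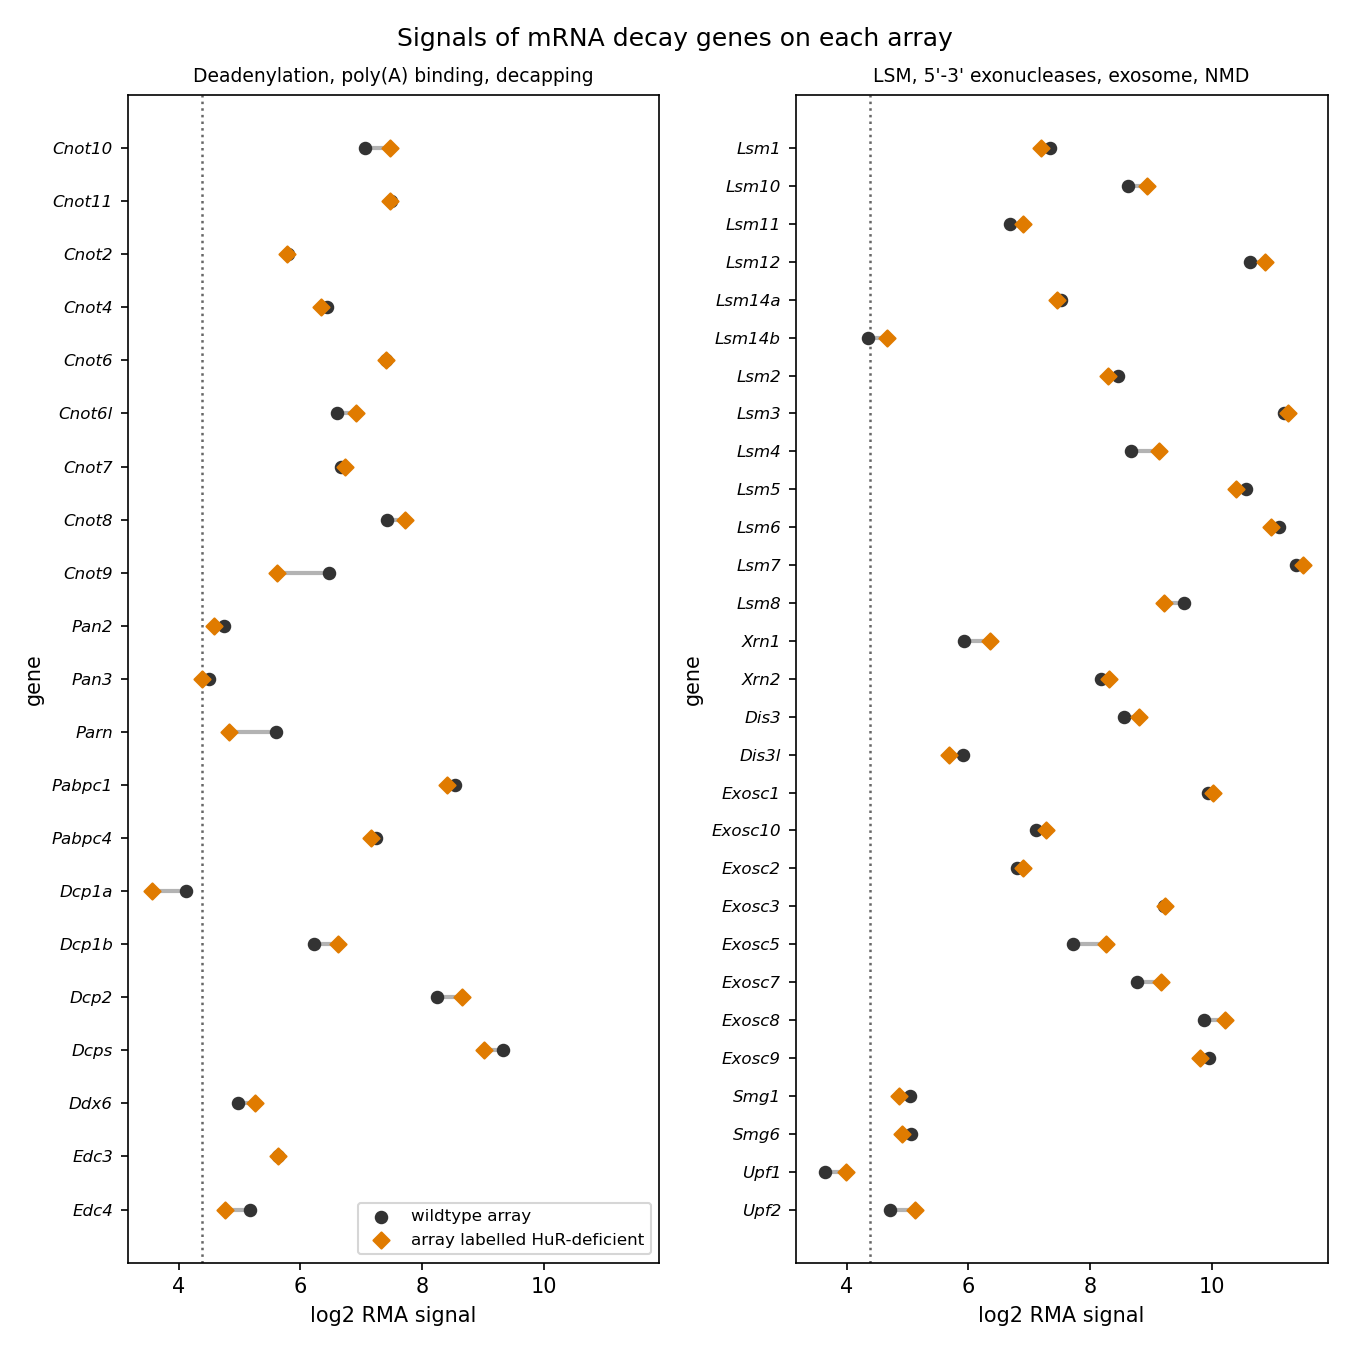
Log2 RMA signals (x axis) of the 50 measured decay genes (y axis) on the wildtype array (dark circles) and the array labelled HuR-deficient (orange diamonds), joined by a grey bar; the dotted line marks the filter at 4.38. The longest bars belong to Cnot9 (6.47 to 5.62) and Parn (5.59 to 4.82), and both Dcp1a values and both Upf1 values lie left of the dotted line; positions of different genes are not comparable with each other.

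The decapping genes were spread on both sides of 0. Their median size was 0.40 over the 7, against 0.20 over all 50 decay genes and 0.22 over all named genes. The 7 include Dcp1a, which did not pass the filter. Of all genes that passed, 23.3% differed by at least as much as Dcp2 and 24.1% by at least as much as Edc4. DCP2 is the catalytic subunit that cleaves the cap. Dcp2 read 8.25 in wildtype and 8.66 on the array labelled HuR-deficient, differing by 0.41. Its cofactor is encoded by the related genes Dcp1a and Dcp1b. Dcp1a (Entrez Gene 75901) read 4.12 and 3.56, a difference of -0.56, with both values below the filter. Dcp1b (Entrez Gene 319618) read 6.22 and 6.62, a difference of 0.40. Its second probe set, at 4.79 and 5.46, differed by 0.67, which is past 1.5-fold. Both probe sets of Dcp1b thus stood higher on the array labelled HuR-deficient and the single one of Dcp1a lower. Differences were more often large at low signal: of the genes that passed the filter, 13.9% in the lowest tertile of mean signal were past 1.5-fold, against 9.55% in the middle and 8.80% in the highest, and Dcp1a lay below that filter.

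The enhancers of decapping and the scavenger enzyme did not share a direction. EDC3 and EDC4 are scaffolds that bring DCP1 and DCP2 together. Edc4 read 5.17 in wildtype and 4.77 on the other array, a difference of -0.40, while Edc3 read 5.62 on both. Ddx6, which encodes an RNA helicase of P-bodies that links deadenylation to decapping, read 4.97 and 5.25, a difference of 0.27. Dcps, which encodes the scavenger enzyme that hydrolyses the cap left after 3'-5' decay, read 9.33 and 9.01, a difference of -0.33. Counted over all 7, 3 genes lay above 0, 3 below and 1 at 0, and the median was 0.00. Over the 6 that passed the filter, without Dcp1a, the median was 0.14.

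The 5'-3' exonuclease genes were both higher on the array labelled HuR-deficient. Xrn1, which encodes the cytoplasmic enzyme that degrades decapped mRNA, read 5.92 in wildtype and 6.36, a difference of 0.43. Xrn2, which encodes the nuclear enzyme that also acts in transcription termination, read 8.17 and 8.31, a difference of 0.14. A difference at least as large as that of Xrn1 was found in 21.1% of the genes that passed the filter.

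The LSM genes lay between -0.33 and 0.46, all within 1.5-fold. LSM1 to LSM7 form a cytoplasmic ring that binds the shortened tail and promotes decapping, and LSM2 to LSM8 form a nuclear ring on U6 snRNA. Lsm1, specific to the cytoplasmic ring, read 7.35 in wildtype and 7.20 on the other array, a difference of -0.15. Lsm8, specific to the nuclear ring, read 9.54 and 9.22, a difference of -0.33, the lowest of the step. Lsm4, shared by both rings, read 8.67 and 9.13, a difference of 0.46, the highest of the step. The other shared genes ran from Lsm2 (-0.16) to Lsm7 (0.12), whose second probe set also differed by 0.12. Over Lsm1 to Lsm8 the median was -0.14, with 3 above 0 and 5 below.

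Of the 5 LSM genes outside these rings, 4 were higher on the array labelled HuR-deficient, and their median was 0.25. Lsm10 and Lsm11, which encode subunits of the U7 particle that processes histone mRNAs, differed by 0.31 and 0.21. Lsm12 differed by 0.25. Lsm14a, which encodes a P-body protein, read 7.52 and 7.45, a difference of -0.07, and its relative Lsm14b read 4.36 and 4.66, a difference of 0.30, passing the filter only through the second value. Over all 13 LSM genes the median was 0.06, with 7 above 0 and 6 below; it was -0.01 when the filter was stricter, which left out Lsm14b.

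Exosome genes lay mostly above 0, 8 of 10, against 49.3% of all genes that passed the filter. Their median was 0.13, and none reached 1.5-fold. The median size of their differences was 0.19, against 0.22 over all genes that passed the filter. The exosome has a barrel of RNase PH-like subunits, a cap of RNA-binding subunits and nucleases attached to it. Exosc5 (Entrez Gene 27998), a barrel subunit, had the largest positive difference of all 50 genes, with 7.72 in wildtype and 8.25 on the array labelled HuR-deficient, differing by 0.53. Differences of at least that size were found in 13.8% of all genes that passed the filter and in 10.9% of those in its signal tertile. A pair of further barrel genes was on the same side: Exosc7 read 8.77 and 9.15 (difference 0.38) and Exosc8 read 9.87 and 10.21 (difference 0.34). Exosc9, another barrel subunit, read 9.94 and 9.81, a difference of -0.14. The 4 measured barrel genes thus did not share a direction.

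The cap genes were nearly equal on both arrays. Exosc3 read 9.22 on each, with a difference of 0.01, Exosc1 differed by 0.07 and Exosc2 by 0.11. Among the nucleases, Exosc10, which encodes the mainly nuclear distributive enzyme, read 7.12 in wildtype and 7.27 on the other array, a difference of 0.16. Dis3, which encodes the processive nuclease of the nuclear exosome, read 8.56 and 8.81, a difference of 0.25. Dis3l, which encodes its cytoplasmic counterpart, read 5.91 and 5.68, a difference of -0.23. The nuclear and the cytoplasmic nuclease thus lay on different sides of 0, each within 1.2-fold.

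Of the factors of nonsense-mediated decay, Upf1 and Upf2 were higher and Smg1 and Smg6 lower on the array labelled HuR-deficient, all by less than 1.5-fold. UPF1 is the central helicase, which the kinase SMG1 phosphorylates; UPF2 activates it, and SMG6 is the endonuclease that cuts the target. Upf1 read 3.64 in wildtype and 3.996 on the array labelled HuR-deficient, differing by 0.35, with both values below the filter. Upf2 read 4.71 and 5.12, a difference of 0.41. Smg1 read 5.04 and 4.85, a difference of -0.19, and Smg6 read 5.05 and 4.90, a difference of -0.15. The median over these 4 was 0.10, and without Upf1 it was -0.15, so its sign rests on a gene whose signal did not pass the filter.

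**Figure D3:**
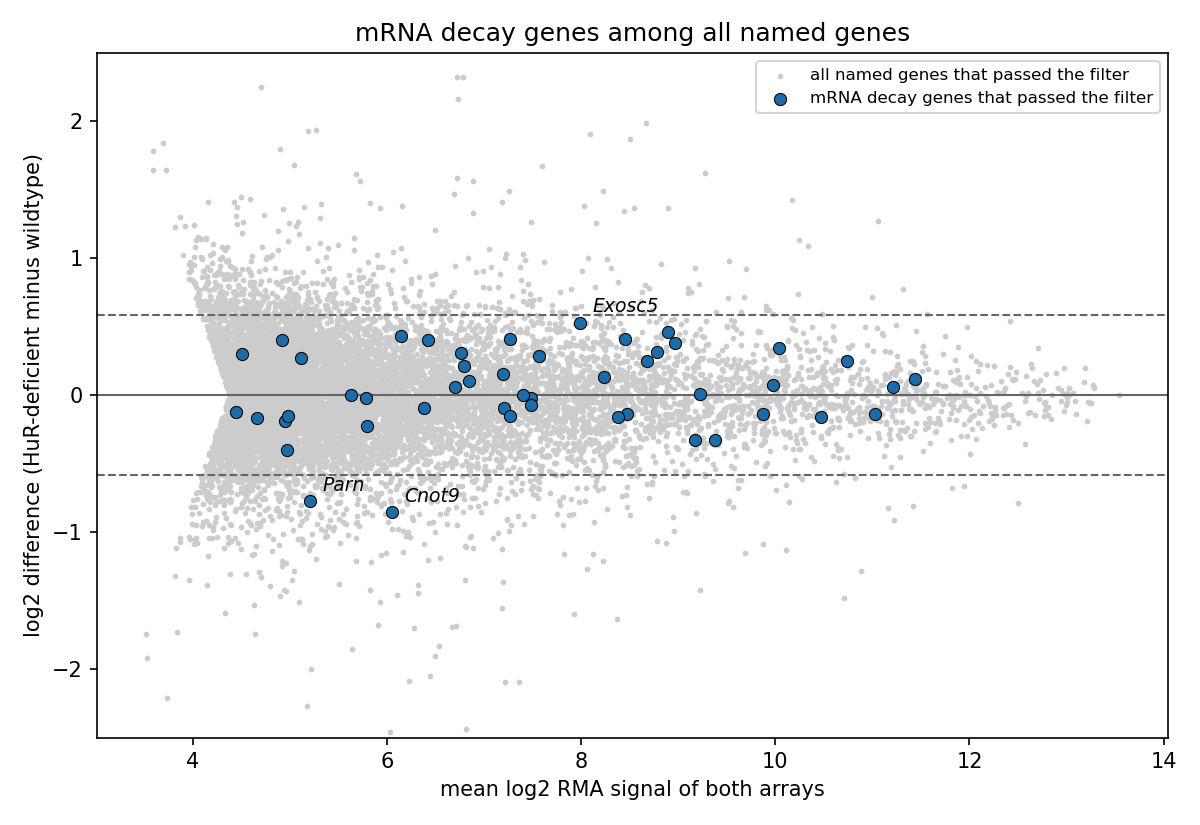
Log2 difference (y axis, array labelled HuR-deficient minus wildtype array) against the mean log2 signal of both arrays (x axis) for the 11905 named genes that passed the filter (grey) and the 48 decay genes among them (blue); dashed lines mark 1.5-fold, and 13 genes beyond 2.5 on the y axis are not drawn. The decay genes lie within the cloud of all genes, with Cnot9 and Parn below the lower dashed line and Exosc5 just under the upper one.

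How far probe sets alone disagree gives a rough scale for these differences, since a gap between 2 differences can exceed the error of either. For 461 genes with exactly 2 named probe sets that passed the filter, the differences from the 2 probe sets were 0.25 apart in the median, and 0.63 apart at the 90th percentile. Of the 50 decay genes, 22 had a difference larger in size than the first value and 2, Cnot9 and Parn, one larger than the second. Of all genes that passed the filter, 45.1% differed by at least as much as Lsm12 (0.25). A difference of 0.585 or more, which is 1.5-fold, was found in 10.8% of them, and one at least as large as that of Parn in 4.8%. The share past 0.63 lies between these and was not computed. These shares leave out genes below the filter, while the 50 include Dcp1a and Upf1. The counts of 22 and 2 are thus no result about the set. The scale from probe sets covers probes read on the same RNA. It does not include the spread between cultures, which 1 array per group cannot give.

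Other genes that act on mRNA decay, 65 in all and taken from a list of regulators and cofactors, were examined beside the machinery. Of these, 54 were measured, 22 above 0, 29 below and 3 equal, with a median of -0.02. Of the 45 that passed the filter, 1 was past 1.5-fold higher and 3 past 1.5-fold lower, beside the 5.44% and 5.32% of all genes given above. Paip1, which encodes a partner of the poly(A)-binding protein that stimulates translation, read 6.45 in wildtype and 5.23 on the other array, a difference of -1.22 and the only one of these 45 past 2-fold. Tent4b, which encodes a non-canonical poly(A) polymerase, read 10.44 and 9.78, a difference of -0.65. Etf1, which encodes the translation release factor, read 9.67 and 9.05, a difference of -0.62.

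On the other side, Zfp36l1, which encodes an AU-rich element binding protein that recruits CCR4-NOT, read 5.25 in wildtype and 5.92 on the array labelled HuR-deficient, differing by 0.68. Eif4a3, which encodes the helicase of the exon junction complex, read 7.51 and 8.09, a difference of 0.58. Tent4a, the relative of Tent4b, read 5.93 and 6.43, a difference of 0.49. The 3 highest and 3 lowest genes that passed the filter were named by rule, and the rest lay between them.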

How the data were processed

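The authors deposited log2 values, 1 column for each array, from RMA, per the submitters' processing notes. For RMA, the version, the annotation and the build were not given in the sources used here. Because RMA quantile-normalises arrays, a difference in total mRNA between the cultures is invisible in these values. There were 41345 probe sets with values from 0.43 to 13.77, and Pearson's r between the arrays over probe sets was 0.970.

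The platform's gene table named the probe sets, and the 23521 with 1 symbol were used. The probe set with the highest mean of both arrays stood for a gene. Differences were subtractions of log2 values. No p-value exists with 1 array per group, and precision is limited by the number of arrays. Tertiles were taken over the mean signal of genes that passed the filter. All decay genes could be named, with both values for those past 1.5-fold, the defining members and the extremes of each step. The members, lists and motifs were chosen with earlier results of these data known. Of the related list, 5 genes were matched through a synonym, and Mpp6 was dropped because that mouse symbol is another gene. Counting steps were tested on simulated data. Promoter windows were copied from RefSeq (GRCm38.p6). The software was Python 3.11.15 with pandas 2.3.3, numpy 2.4.6, matplotlib 3.10.9 and statsmodels 0.14.6. The alternatives were other scalings (centring, quantile normalisation, a loess trend with span 0.3), other probe set summaries, filters, thresholds and means.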

Additional observations from a re-analysis of the deposited data

How the results depend on the processing

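The count of 2 genes past 1.5-fold lower, and of 0 past 2-fold, held under each scaling, probe set summary and filter tried. Of these settings, only quantile normalisation and the loess trend could change the differences of Cnot9 and Parn, which have 1 probe set each. At a threshold of 0.5 on the log2 scale, 1 gene, Exosc5, was counted higher. Without the filter, 46 of the 50 decay genes and 18592 of all 22180 named genes lay within 0.5 of 0. Cnot9 ran from -0.84 to -0.85 and Parn from -0.77 to -0.78 over these alternatives. The median of nonsense-mediated decay changed sign, to -0.1476, with the filter at the 60th percentile, with both values required to pass, and over the genes that passed the main filter (an alternative added after seeing the data), because Upf1 was left out. The decapping median was 0.1364 under the same 3 settings, because Dcp1a was left out. Dcp1b was 0.54 when its probe sets were averaged. Of 450 values for single genes, the other 448 moved by less than 0.1, but most of them could not move. A filter leaves a gene's difference unchanged, 48 of the genes have 1 probe set, and centring subtracted 0.00. Only quantile normalisation and the loess trend could move every gene. Scaling moved the median of all named genes by at most 0.01. No paired analysis was possible because each group has 1 array, and for the same reason no replicate could be left out.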

Other observations

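Several genes of this machinery come as related pairs, and their differences between the arrays were set side by side after the values were seen. The central 95% of all genes that passed the filter had differences from -0.77 to 0.75. This is a range of single differences and no scale for the gaps below, because a gap between 2 differences can be wider. Gaps between unrelated genes were not computed. The poly(A)-binding genes Pabpc1 and Pabpc4 had differences 0.05 apart, Lsm1 and Lsm8 0.18 apart, and the nucleases Cnot7 and Cnot8 0.23 apart. Cnot6 and Cnot6l were 0.31 apart, Xrn1 and Xrn2 0.30, and Lsm14a and Lsm14b 0.37. Dis3 and Dis3l were 0.48 apart and on different sides of 0. Dcp1a (-0.56) and Dcp1b (0.40) were 0.96 apart, with Dcp1a below the filter on signal. Outside the machinery, the poly(A) polymerases Tent4a (0.49) and Tent4b (-0.65) were 1.14 apart. Paip1 (-1.22) and Paip2 (0.44), whose products bind the poly(A)-binding protein and are known to stimulate and to inhibit translation, were 1.66 apart; Paip2 was named after its value was seen. With 1 array per group, none of these gaps could be tested.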
